A study of Mus musculus with 24 samples.

Results

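The Kruppel-like factors are zinc finger transcription factors, and 10 of their genes (Klf2, Klf3, Klf4, Klf5, Klf6, Klf7, Klf9, Klf10, Klf11 and Klf13) were followed here across oxygen and electrical stimulation. They were taken by gene symbol, with earlier results of these data known, out of 55487 genes listed and 17 genes of the family. All 10 passed the filter on low values, as did 14541 genes in all. The values come from bulk RNA of C2C12, an established mouse myoblast line that fuses into contractile myotubes in culture, labelled as wild type and as day 5 of differentiation. The cultures differentiated under 5 % O2 and then spent 2 h under 5 % or 1 % O2. They were either left unstimulated (5 % CTRL, 1 % CTRL) or, after these 2 h, given repeated bouts of electrical pulses that make myotubes contract (5 % STIM, 1 % STIM). There were 6 libraries in each of the 4 groups, described in the methods as biological replicates. Medium was exchanged before and after the stimulation and cells were collected at once. Whether the unstimulated cultures were handled in the same way is not stated in the sources used here, so handling and contraction cannot be told apart in the comparisons by stimulation. All cells were of 1 line, without nerve, blood vessel or immune cells.

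Kruppel-like factors share a DNA-binding end of C2H2 zinc fingers that recognises CACCC and GC boxes, the same kind of site that Sp factors bind, and they differ in the part that recruits other proteins. Klf2, Klf4, Klf5, Klf6 and Klf7 are mostly known as activators, Klf3 recruits the corepressor CtBP, and Klf9, Klf10, Klf11 and Klf13 can recruit the Sin3A corepressor. In muscle, Klf2 and Klf4 act downstream of the kinase ERK5 in myoblast fusion, Klf3 binds muscle promoters together with serum response factor, Klf5 acts beside MyoD in differentiation, and Klf15 controls amino acid and lipid use.

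Promoter windows in RefSeq (GRCm38.p6, 250 bases before to 50 after each start) existed for 8 of the members, and Klf5 and Klf10 were without one. Both strands were searched for the core of the hypoxia response element (ACGTG), the short form of the cAMP response element (TGACG), the MEF2 site, the CArG box, the CACCC box (CACCC) and the GC box (GGGCG). The 5 windows with an ACGTG or a MEF2 match are shown because the design varies oxygen and stimulation, with these matches and TGACG in capitals. Each is printed on the gene's own strand and ends before the first annotated base of the transcript in both RefSeq and GENCODE.

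Klf2 (chr8:72318812-72319032, plus strand): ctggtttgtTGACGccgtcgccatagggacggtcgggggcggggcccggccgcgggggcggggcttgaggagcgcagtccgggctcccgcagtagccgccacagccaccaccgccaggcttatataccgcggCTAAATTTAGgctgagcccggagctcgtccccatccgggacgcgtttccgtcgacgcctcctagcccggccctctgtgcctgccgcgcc
Klf4 (chr4:55532476-55532725, minus strand): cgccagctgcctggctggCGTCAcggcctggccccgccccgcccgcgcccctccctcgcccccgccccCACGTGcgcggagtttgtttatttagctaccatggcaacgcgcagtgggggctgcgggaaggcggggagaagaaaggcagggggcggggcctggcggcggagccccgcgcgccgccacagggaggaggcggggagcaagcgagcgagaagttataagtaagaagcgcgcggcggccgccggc
Klf6 (chr13:5861239-5861481, plus strand): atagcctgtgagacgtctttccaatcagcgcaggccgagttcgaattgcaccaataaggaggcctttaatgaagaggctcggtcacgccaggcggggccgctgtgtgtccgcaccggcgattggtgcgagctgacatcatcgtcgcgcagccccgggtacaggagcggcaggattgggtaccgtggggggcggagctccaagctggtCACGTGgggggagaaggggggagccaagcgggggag
Klf9 (chr19:23140976-23141225, plus strand): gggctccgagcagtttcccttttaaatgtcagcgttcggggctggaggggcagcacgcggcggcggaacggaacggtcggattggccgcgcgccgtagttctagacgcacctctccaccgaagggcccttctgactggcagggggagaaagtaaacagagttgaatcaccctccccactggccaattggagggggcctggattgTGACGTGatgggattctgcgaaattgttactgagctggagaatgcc
Klf11 (chr12:24651121-24651273, plus strand): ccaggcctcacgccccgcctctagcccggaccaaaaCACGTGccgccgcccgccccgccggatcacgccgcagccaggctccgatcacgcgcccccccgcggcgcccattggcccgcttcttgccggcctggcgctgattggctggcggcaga

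ACGTG was found in the windows of Klf4, Klf6, Klf9 and Klf11, that is 4 of 8, and in 19.6 % of the 32851 RefSeq windows. In Klf4, Klf6 and Klf11 it lies inside CACGTG, which reads the same on both strands, and in Klf9 it shares bases with a TGACG. The latter stood in 5 member windows, those of Klf2, Klf3, Klf4, Klf9 and Klf13, against 20.8 % of all windows. In Klf3 and Klf4 it is on the opposite strand, and in Klf3 it lies after the start, at 19 to 23. The MEF2 match of Klf2, at −118 to −109 from the RefSeq start, was the only one among the members (3.19 % of all windows), and none held a CArG box (1.63 %). CACCC was in 5 member windows and in 57.5 % of all, and GGGCG in 7 and in 47 %. The Klf7 window had 0 bases before both the RefSeq and the GENCODE start, and those of Klf3 and Klf11 had 117 and 153. Matches in these windows may thus lie within the annotated gene. Member windows had a median GC content of 71.4 % against 52.4 % over all windows, and the matches are letters in a window, not measured binding.

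The labelled cell type could be read from its markers. All 9 myotube markers, such as myogenin (Myog) and muscle creatine kinase (Ckm), were above the filter, while none of 4 endothelial and none of 3 adipocyte markers were, with Plin1 at 0 in every library. The myotube markers summed to 430292 to 471687 normalized counts in 5 % CTRL and 376343 to 418682 in 1 % CTRL, and to 394144 to 454775 in 5 % STIM and 371509 to 408921 in 1 % STIM. The 5 markers of undifferentiated or dividing myoblasts summed to 3066 to 3490 in 5 % CTRL and 3551 to 5560 in 1 % CTRL, and to 3416 to 3967 in 5 % STIM and 3842 to 4680 in 1 % STIM. Under 1 % O2 at rest 6 of the 9 myotube markers were called lower and Acta1, Mymk and Tnni1 were not called. With stimulation 8 were called lower under 1 % O2, although the sums of the stimulated groups overlapped. Of all genes, 30.5 % were called lower and 29.4 % higher under 1 % O2 at rest, and 28.4 % and 29 % with stimulation. Of the myoblast markers Pax7, Myf5 and Top2a were called higher under 1 % O2 in both states, Ccnb1 was called lower and Mki67 was not called, so the list did not move as one. The part of these markers in the results below was not tested. In bulk RNA, fewer cells of a type and less RNA per cell cannot be told apart. Of 3 leukocyte markers only Cd68 passed the filter, and the list summed to between 27.6 and 70.5 in any library. Libraries held 26541858 to 28173745 reads, and 1 % CTRL replicate 1 had the lowest median correlation with its own group, 0.985.

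Values are counts divided by the library's size factor, called normalized counts, and are given as mean ± SD of 6 libraries. Per kilobase of exon, the only scale on which different genes are compared here, Klf6 was the most abundant member in 5 % CTRL with 1334 normalized counts. Klf5 followed with 903 and Klf10 with 629, and the next 5, from Klf3 with 336 down to Klf7 with 217, lay closer together. Klf11 had 89.7 and Klf2 had 53.7, the lowest. Of the other family genes, Klf16 had 159 per kilobase in 5 % CTRL, Klf12, Klf8, Klf15 and Klf1 had at most 4.72, and Klf14 and Klf17 were at 0 there. Summed over the 10 members, the level per kilobase was 4463 ± 83.8 in 5 % CTRL against 3693 ± 55.7 in 1 % CTRL, and 4895 ± 65.1 in 5 % STIM against 3843 ± 115 in 1 % STIM. The summed level was thus lower under 1 % O2 in both states. There was no overlap between 5 % CTRL (lowest 4327) and 1 % CTRL (highest 3786), or between 5 % STIM (lowest 4780) and 1 % STIM (highest 3983). The total normalized count of the libraries was also lower under 1 % O2. Its medians were 26616110 in 1 % CTRL against 28159696 in 5 % CTRL, and 26207328 in 1 % STIM against 27489278 in 5 % STIM. The part of this shift in the summed level was not tested.

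**Figure D1:**
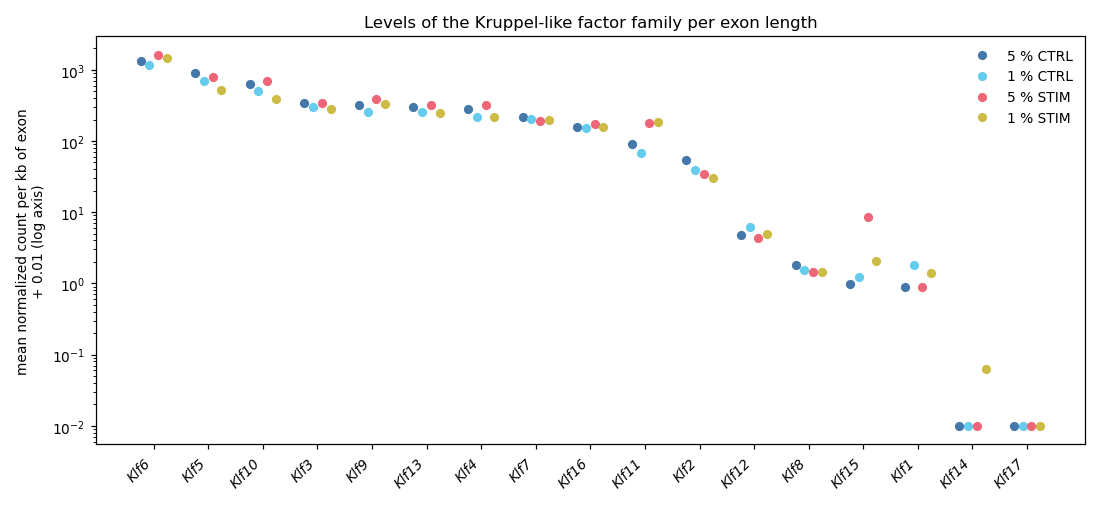
Mean normalized count per kilobase of exon, plus 0.01, on a log axis for the 17 family genes, ordered by their level in 5 % CTRL, with a point for each of the 4 groups of 6 libraries. Klf6 leads with 1334 in 5 % CTRL, Klf11 stands higher in both stimulated groups, and Klf14 and Klf17 sit at or near the floor.

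The first comparison asks what 2 h of hypoxia did to resting myotubes. In 1 % CTRL all 10 members were lower than in 5 % CTRL, and all 10 passed the test (limma across all genes, adjusted p under 0.05). Over all genes tested 30.5 % were called lower and 29.4 % higher in this comparison. Because the members were chosen with earlier results of these data known, their count is a description only. Of the family genes outside the 10, Klf8, Klf12 and Klf16 were tested and not called here. In 9 of the 10, all but Klf2, every library of 1 % CTRL was below every library of 5 % CTRL, a pattern found in 19.9 % of all genes in this direction and in 18.2 % in the other. The median log2 fold change was −0.32 over the members and 0.0015 over all genes. After a rescaling of all libraries to the same total, 9 members stayed called and Klf7 did not, the fold changes of Klf6, Klf3 and Klf13 shrank to −0.11, −0.09 and −0.12, and the share of higher genes among all those called was 62.67 % in place of 49.05 %.

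Klf4, one of the factors that can reprogram cells to pluripotency, ranged from 815 to 906 in 5 % CTRL (median 868) and from 589 to 701 in 1 % CTRL (median 661). The groups stood well apart, and the level was 24.8 % lower under 1 % O2 (log2 fold change −0.41 ± 0.05 SE, adjusted p = 1.41e-09 by limma). Klf2, which carries the MEF2 match shown above and is best known as a flow-induced factor of endothelium, ranged from 85.4 to 119 (median 92.1) and from 54.1 to 87.2 (median 72.6). The highest library of 1 % CTRL reached into the range of 5 % CTRL, and the mean was 28.1 % lower (−0.47 ± 0.12, adjusted p = 0.000861). Klf5 fell from 4698 ± 156 to 3585 ± 163 (−0.39 ± 0.03, adjusted p = 1.99e-12), with a narrow spread in both groups. Klf6, a factor induced by tissue injury, fell from 5856 ± 165 to 5146 ± 150 (−0.19 ± 0.03, adjusted p = 1.23e-06). Klf7, known from axon growth, showed the smallest difference of the 10, from 1761 ± 56.9 to 1633 ± 41.6 (−0.11 ± 0.04, adjusted p = 0.00974), and was not called when libraries were rescaled to the same total (−0.03, adjusted p = 0.489). Klf7 shares 37.6 % of its 75-base stretches with the antisense gene Gm26649, and no source used here says that reads were assigned by strand, so the pair may be mixed.

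Klf3, the CtBP-binding member, fell from 3782 ± 150 to 3353 ± 96.0 (−0.17 ± 0.03, adjusted p = 9.12e-06). An antisense gene, Gm20033, overlaps it, and 2.88 % of its 75-base stretches occur elsewhere. Among the Sin3A-binding members, Klf10, a gene induced early by TGF-β, ranged from 2570 to 2793 (median 2592) in 5 % CTRL and from 2002 to 2155 (median 2096) in 1 % CTRL. Its mean was 20.7 % lower (−0.33 ± 0.03, adjusted p = 4.09e-10). Klf11, its closest relative and also a TGF-β early gene, ranged from 351 to 423 (median 394) and from 255 to 339 (median 289), a mean 25.1 % lower (−0.42 ± 0.06, adjusted p = 5.57e-07). Klf9, a target of glucocorticoid and thyroid hormone receptors, fell from 1537 ± 79.3 to 1235 ± 41.3 (−0.31 ± 0.04, adjusted p = 2.04e-08). Klf13, known from T cells and heart, fell from 2231 ± 58.8 to 1938 ± 60.7 (−0.20 ± 0.03, adjusted p = 4.99e-07). In these 5 genes the groups did not overlap.

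**Figure D2:**
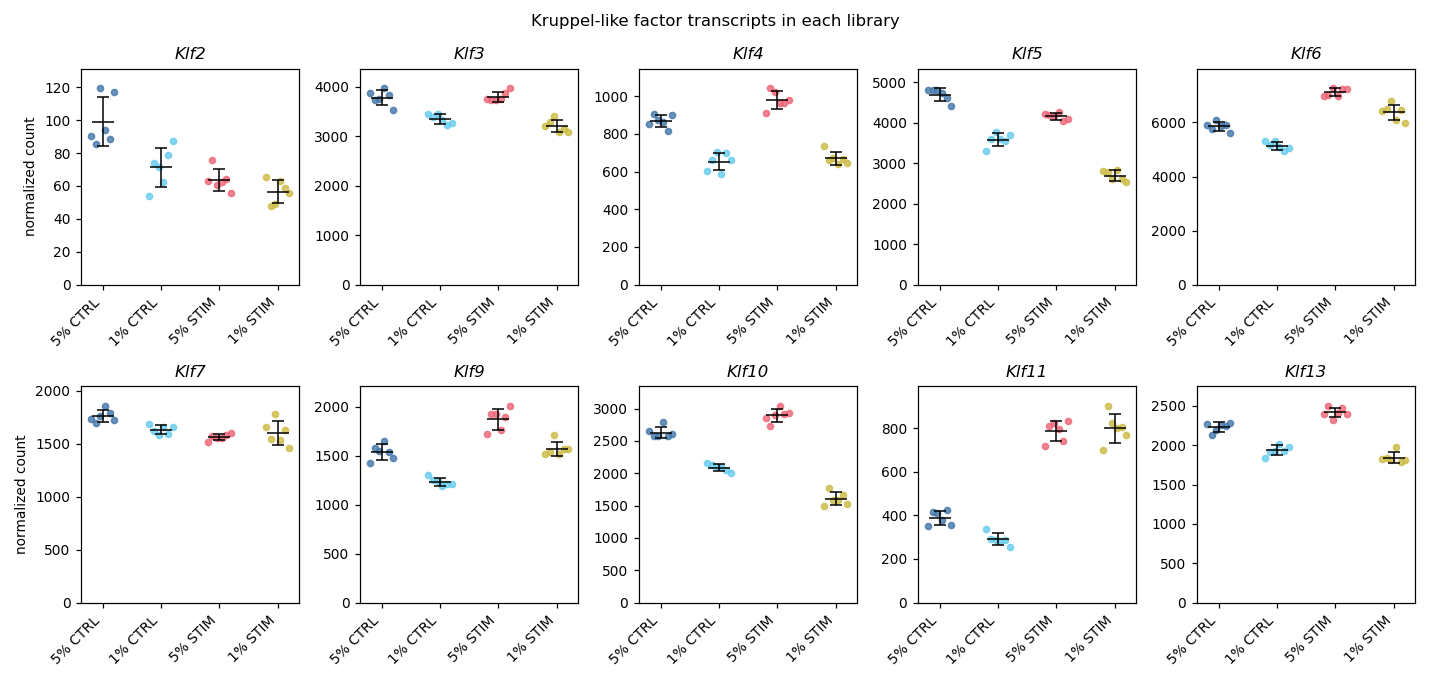
Normalized count of each member in each of the 24 libraries, with points by group and replicate number from left to right and black bars for mean ± SD of 6 libraries. The axes start at 0, and the 1 % CTRL points lie below the 5 % CTRL points in every panel but that of Klf2, where they overlap.

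The same oxygen contrast in stimulated myotubes set 1 % STIM against 5 % STIM. Here 7 members were lower, none higher, and Klf2, Klf7 and Klf11 were not called. The background was 28.4 % of all genes called lower and 29 % called higher, and the 7 called members were also the 7 with no overlap between groups, a pattern that 18.7 % of all genes showed in either direction. The median log2 fold change was −0.25 over the members and −0.00083 over all genes. With rescaled libraries the share of higher genes among those called was 63.21 % in place of 50.44 %, Klf7 became higher (0.10, adjusted p = 0.0108), and Klf6 shrank to −0.09 but stayed called.

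Klf10 had the largest difference of the members, with 2727 to 3039 (median 2914) in 5 % STIM and 1489 to 1770 (median 1593) in 1 % STIM. All hypoxic libraries lay far below the others, and the mean was 44.5 % lower (−0.85 ± 0.03, adjusted p = 1.77e-20 by limma). Klf5 had 4047 to 4278 (median 4182) and 2536 to 2833 (median 2699), a mean 35.3 % lower (−0.63 ± 0.03, adjusted p = 1.18e-17). Klf4 fell from 980 ± 47.3 to 670 ± 33.7 (−0.55 ± 0.05, adjusted p = 2.47e-12). Klf13, with −0.39 ± 0.03, and Klf9 and Klf3, with −0.25 ± 0.04 and −0.25 ± 0.03, fell by less, and Klf6 fell by 10.5 % (adjusted p = 1.44e-05). Klf11 stood at 787 ± 47.1 in 5 % STIM and 801 ± 66.7 in 1 % STIM, with overlapping libraries (0.02 ± 0.06, adjusted p = 0.780). Klf7 (0.03 ± 0.04, adjusted p = 0.460) and Klf2 (−0.17 ± 0.12, adjusted p = 0.223) also overlapped between these groups.

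**Figure D3:**
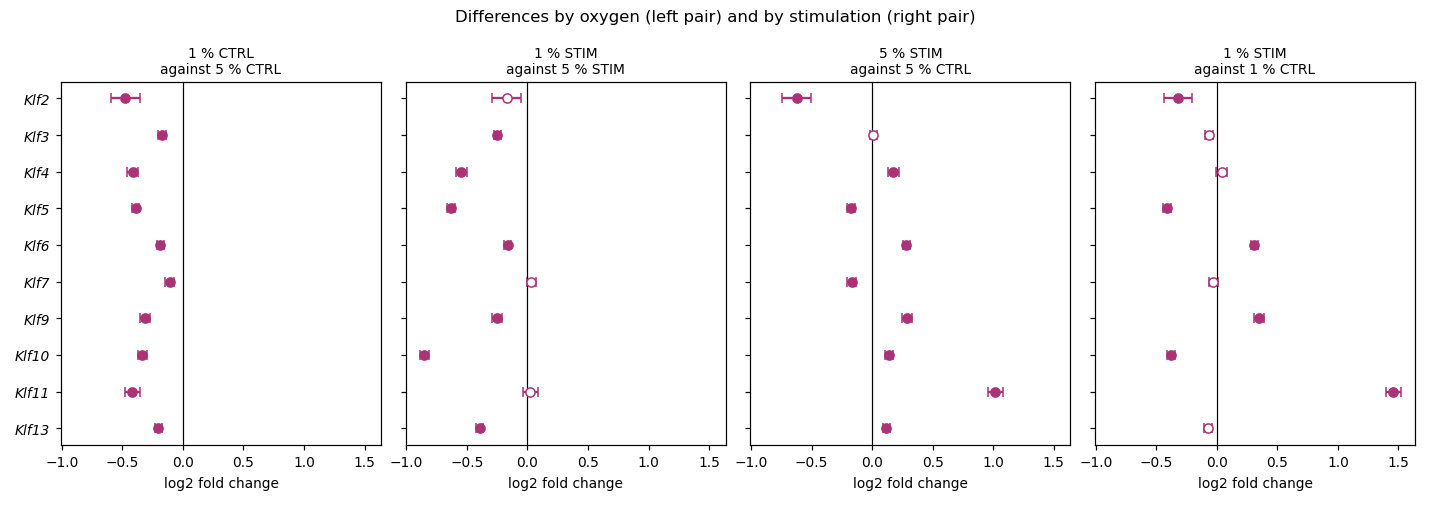
Log2 fold change ± SE from limma for each member in the comparisons by oxygen (left pair of panels) and by stimulation (right pair), with filled points for adjusted p under 0.05 and open points otherwise. All 10 points are filled and negative for 1 % CTRL against 5 % CTRL, and Klf11 reaches 1.02 and 1.46 in the stimulation panels.

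The next comparisons ask what differed with stimulation under each oxygen level. Under 5 % O2, 6 members were higher in 5 % STIM than in 5 % CTRL (Klf11, Klf9, Klf6, Klf4, Klf10 and Klf13), 3 were lower (Klf2, Klf5 and Klf7) and Klf3 was not called (0.01 ± 0.03, adjusted p = 0.882 by limma). Of all genes, 9.44 % were called higher and 12 % lower. Of the 6 that were higher, 5 had no overlap between groups (Klf10 did), and all 3 that were lower had none, where 5.64 % and 5.44 % of all genes had no overlap in these directions. The share of higher genes among all those called was 44.04 %, and 62.15 % after rescaling. This comparison and the first share the 5 % CTRL libraries.

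Klf11 had the largest rise, from 351 to 423 in 5 % CTRL (median 394) to 719 to 835 in 5 % STIM (median 802). Its lowest stimulated library lay far above the highest control, and the ratio of means was 2.02 (log2 fold change 1.02 ± 0.06, adjusted p = 8.64e-15). Klf9 had 1424 to 1653 (median 1546) without and 1726 to 2007 (median 1911) with stimulation, a rise of 21.9 % in the mean (0.29 ± 0.04, adjusted p = 1.02e-06). Klf6 rose by a similar share, 21.6 %, from 5856 ± 165 to 7123 ± 145 (0.28 ± 0.03, adjusted p = 2.62e-09). Klf4, Klf10 and Klf13 rose by 12.9 %, 10.2 % and 8.40 %, with adjusted p of 0.00498, 0.00332 and 0.00457. The Klf10 ranges overlapped, and those of Klf4 and Klf13 were close to touching.

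Klf2 went the other way, from 85.4 to 119 in 5 % CTRL to 55.7 to 76.0 in 5 % STIM (median 62.8). No stimulated library reached the lowest control, and the mean was 35.7 % lower (−0.62 ± 0.12, adjusted p = 0.000167). Its relative Klf4 thus moved in the opposite direction in the same libraries. Klf5 fell from 4698 ± 156 to 4166 ± 85.6 (−0.17 ± 0.03, adjusted p = 0.000141), and Klf7 from 1761 ± 56.9 to 1565 ± 29.3 (−0.17 ± 0.04, adjusted p = 0.000585).

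Under 1 % O2, 3 members were higher in 1 % STIM than in 1 % CTRL (Klf11, Klf9 and Klf6) and 3 were lower (Klf5, Klf10 and Klf2), while 11.5 % of all genes were called higher and 10.8 % lower. The 3 that were higher, and Klf5 and Klf10, did not overlap between groups, which held for 5.29 % of all genes in the higher and 5.91 % in the lower direction. The share of higher genes among those called was 51.4 %, and 62.36 % after rescaling.

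Klf11 rose from 255 to 339 in 1 % CTRL (median 289) to 698.5 to 901 in 1 % STIM (median 804), with a ratio of means of 2.75 (1.46 ± 0.06, adjusted p = 5.93e-19). Klf9 rose by 27.3 % to 1572 ± 72.8 (0.35 ± 0.04, adjusted p = 1.68e-08) and Klf6 by 23.8 % to 6373 ± 289 (0.31 ± 0.03, adjusted p = 2.91e-10). Klf4 was at 653 ± 46.7 and 670 ± 33.7 and was not called (0.04 ± 0.05, adjusted p = 0.606). Klf5 fell from 3296 to 3774 (median 3602) to 2536 to 2833 (median 2699), and Klf10 from 2002 to 2155 (median 2096) to 1489 to 1770 (median 1593). These are falls of 24.8 % and 23.0 % in the mean, with log2 fold changes of −0.41 ± 0.03 and −0.38 ± 0.03 (adjusted p = 4.36e-12 and 1.64e-10). Klf2 was at the edge of the threshold, with 71.3 ± 11.8 and 56.6 ± 7.08 (−0.32 ± 0.12, adjusted p = 0.0497). Its groups overlapped, and the call was lost in 8 of the 12 alternative settings, 1 of them the stricter threshold, with adjusted p up to 0.0947. Klf13 was not called (−0.07 ± 0.03, adjusted p = 0.0777) but was without 1 % CTRL replicate 1 (−0.09, adjusted p = 0.0303). Klf3 (−0.07 ± 0.03, adjusted p = 0.126) and Klf7 (−0.03 ± 0.04, adjusted p = 0.644) were not called either.

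Whether the response to stimulation differed between the 2 oxygen levels was tested directly. The value is the log2 fold change with stimulation under 1 % O2 minus that under 5 % O2. Klf10, Klf5 and Klf13 had a lower response under 1 % O2 and Klf11 a higher one, against 5.43 % of all genes called lower and 5.88 % called higher. For Klf10 the sign itself turned, with a rise under 5 % O2 and a fall under 1 % O2, both called, and a difference of −0.52 ± 0.05 (adjusted p = 2.13e-09 by limma). Klf5 fell with stimulation at both oxygen levels and by more under 1 % O2, with a difference of −0.24 ± 0.05 (adjusted p = 0.000507). Klf13 rose under 5 % O2 and was not called under 1 % O2, with a difference of −0.19 ± 0.04 (adjusted p = 0.00261). For Klf11 the difference was 0.44 ± 0.09 (adjusted p = 0.000739): its level was lower in 1 % CTRL than in 5 % CTRL, and the libraries of the stimulated groups overlapped. The other 6 were not called, with differences of 0.14 for Klf7 (adjusted p = 0.0698, and 0.0413 without 1 % CTRL replicate 1), −0.13 for Klf4 (0.192), 0.30 for Klf2 (0.267), −0.08 for Klf3 (0.286), 0.06 for Klf9 (0.535) and 0.03 for Klf6 (0.758). So Klf4, called under 5 % O2 alone, was not shown to respond differently.

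**Figure D4:**
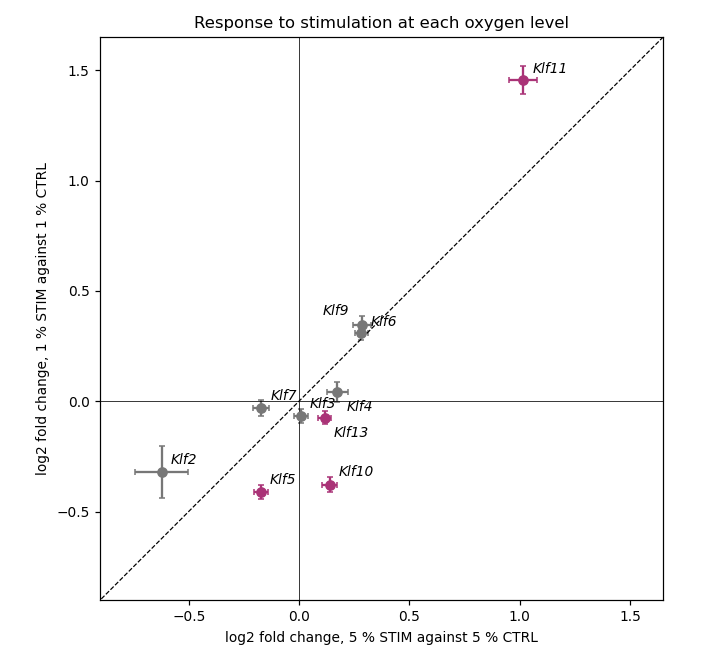
Log2 fold change ± SE with stimulation under 5 % O2 (horizontal) and under 1 % O2 (vertical) for each member, with a dashed line where both are equal and coloured points for a called difference. Klf11 lies above the line at 1.02 and 1.46, Klf10, Klf5 and Klf13 lie below it, and Klf9 and Klf6 lie close to it.

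The order of the 4 groups differed from member to member. Klf5 fell in steps from 5 % CTRL through 5 % STIM and 1 % CTRL to 1 % STIM, and each neighbour differed from the next without overlap. Klf10 ran from 5 % STIM through 5 % CTRL and 1 % CTRL to 1 % STIM, each step called and with overlap only in the first. Klf6 was highest in 5 % STIM, then 1 % STIM, 5 % CTRL and 1 % CTRL, and all steps were called, with overlap between the middle groups. Klf9 had the same order as Klf6, but its step from 1 % STIM to 5 % CTRL was not called (0.03 ± 0.04, adjusted p = 0.490). Klf4 and Klf13 were highest in 5 % STIM, then 5 % CTRL, and the difference between their 1 % O2 groups was not called (adjusted p = 0.606 and 0.0777 by limma). For Klf13 it became called under some of the alternative settings given below. Klf3 split by oxygen only, with no called step within either oxygen level. Klf2 and Klf7 were highest in 5 % CTRL, and their other 3 groups showed no called step from neighbour to neighbour. For Klf2, 1 % STIM and 1 % CTRL are not neighbours in this order, and their difference was called at the edge of the threshold (adjusted p = 0.0497 by limma). These orders also use 1 % STIM against 5 % CTRL, in which 58.9 % of all genes were called, and 1 % CTRL against 5 % STIM, in which 60.4 % were.

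The genes most alike to each member were those with the highest Pearson r over the 24 libraries among 10781 genes with a mean count of at least 100, which describes these 4 groups and carries no test. For Klf5 these were Egr3 (r = 0.987), an early growth response gene, and Rbm12 (0.978). For Klf11 they were Zfand5 (0.979) and Klhl24 (0.977), for Klf10 Pkp1 and Zbtb7c (both 0.971), and for Klf6 Cebpg (0.978), a C/EBP family factor, and Acsl3 (0.969). Klf9 was most like Rab11fip1 (0.970) and Sgk1 (0.962), a kinase gene that glucocorticoid induces as it does Klf9. Klf4 was most like Hs6st1 (0.968) and Slc7a1 (0.966), Klf13 like Tcf25 (0.962) and Pdgfa (0.958), and Klf3 like Pik3r1 (0.955) and Synj2 (0.953). Klf7 reached only 0.822, with Eif3d and Trip4, and Klf2 was too low to enter. Among the members themselves, the highest r was 0.947 between Klf6 and Klf9, Klf10 and Klf13 had 0.917, and the lowest was −0.593 between Klf2 and Klf11.

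Of the other family genes, 4 of 7 passed the filter, and Klf8, Klf12 and Klf16 were called in none of the 5 comparisons above by limma, edgeR, DESeq2 or voom. By limma, 2 of their values had an unadjusted p under 0.05, Klf12 with hypoxia at rest (0.36 ± 0.17, adjusted p = 0.0783) and Klf16 in 1 % STIM against 5 % STIM (−0.13 ± 0.06, adjusted p = 0.0674). Klf15 passed only through 5 % STIM, the one group in which any library reached 10 normalized counts, so its difference from the other groups is tied to the filter and is given as a description, with no test. It had 0 to 6.10 normalized counts in 5 % CTRL (median 2.61) and 0.952 to 6.89 in 1 % CTRL (median 2.88). With stimulation it had 13.2 to 31.0 in 5 % STIM (median 23.5) and 0.974 to 8.66 in 1 % STIM (median 6.77). These levels rest on few reads, and the log2 fold change with stimulation under 5 % O2 was 2.96 with a pseudocount of 1 and 1.41 with a pseudocount of 10.

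The proteins that work with Kruppel-like factors were described by lists. Of the 9 Sp factors 6 were tested, and in 1 % CTRL against 5 % CTRL Sp6 was higher (0.89 ± 0.14, adjusted p = 1.66e-06) and Sp2 and Sp1 were lower (−0.59 ± 0.06 and −0.20 ± 0.04, adjusted p = 2.03e-10 and 2.55e-05). Of all genes, 29.4 % were called higher and 30.5 % lower there, so the Sp counts are no result about the list. No Sp factor was called by limma with stimulation. Under 5 % O2, 0 of the 6 had an unadjusted p under 0.05 and 0 were called by edgeR, DESeq2 or voom. Under 1 % O2, 1 had, Sp4 (0.20 ± 0.08, adjusted p = 0.0545), and each of these other tools called 1. Among 10 corepressors and coactivators, hypoxia at rest gave 3 higher and 4 lower, near the 29.4 % and 30.5 % of all genes. Sin3a, whose protein Klf9, Klf10, Klf11 and Klf13 can recruit, rose from 1215 ± 55.3 to 1788 ± 165 (adjusted p = 9.76e-13). The coactivator genes Crebbp and Ep300 fell (−0.45 ± 0.04 and −0.31 ± 0.04), but the coactivator gene Kat2b rose (0.33 ± 0.05). Corepressor genes were likewise called in both directions, so neither kind moved as one. Crebbp, Ep300 and Hdac2 also had a called interaction, of 0.27, 0.22 and 0.17, where 5.88 % of all genes were called higher and 5.43 % lower. Stimulation called 1 higher and 2 lower under 5 % O2 and 2 higher under 1 % O2. Of all genes, 9.44 % were called higher and 12 % lower under 5 % O2, and 11.5 % and 10.8 % under 1 % O2. The stimulation counts are thus no result about the list.

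In the MEK5-ERK5-MEF2 cascade upstream of Klf2 and Klf4, all 7 genes were tested, and hypoxia at rest gave 3 higher and 1 lower, where 29.4 % and 30.5 % of all genes were called, so the counts are no result about the list. Map3k3 and Mapk7, which encode the kinases MEKK3 and ERK5, were higher (0.45 ± 0.04 and 0.22 ± 0.05), as was Mef2c (0.22 ± 0.03), and Mef2a was lower (−0.33 ± 0.04), where Klf2 and Klf4 were both lower. Stimulation called only Map3k3 under 5 % O2 (0.11 ± 0.04, adjusted p = 0.0310), and under 1 % O2 Mapk7 lower and Map2k5 higher (−0.25 ± 0.05 and 0.16 ± 0.05). Of 5 recorded targets, Npnt, which encodes the fusion-related matrix protein nephronectin, fell from 27919 ± 818 to 23087 ± 456 with hypoxia at rest (adjusted p = 8.88e-09). Thbd, which encodes thrombomodulin, fell from 291 ± 11.4 to 182 ± 13.4 (adjusted p = 2.13e-11). Nos3, endothelial nitric oxide synthase, was higher at a low level (10.1 ± 3.94 and 19.9 ± 5.40, adjusted p = 0.00415). S1pr1 and Cdkn1a were not called. With 29.4 % of all genes called higher and 30.5 % lower, the target counts are no result about the list. With stimulation S1pr1 was lower at both oxygen levels (−0.20 ± 0.07 and −0.37 ± 0.07), and Thbd was higher and Cdkn1a lower under 1 % O2 (0.22 ± 0.06 and −0.11 ± 0.03). Stimulation called 9.44 % of all genes higher and 12 % lower under 5 % O2, and 11.5 % and 10.8 % under 1 % O2.

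Of 5 ubiquitin ligase genes recorded for these proteins, 2 were higher and 2 lower under hypoxia at rest, again near the shares of all genes (29.4 % and 30.5 %). Vhl, which encodes the von Hippel-Lindau protein that also marks HIF for degradation, rose from 606 ± 33.1 to 1183 ± 42.0 (adjusted p = 1.02e-16), and Btrc was higher (0.26 ± 0.05). Fbxw7, a ligase gene recorded for Klf5, fell from 3594 ± 127 to 1967 ± 58.5 (adjusted p = 2.27e-20), and Smurf1 was lower (−0.70 ± 0.03). With stimulation, Vhl and Fbxw7 were lower at both oxygen levels (Vhl −0.16 and −0.31, Fbxw7 −0.12 and −0.14), and Smurf1 was higher under 5 % O2 (0.18 ± 0.03, adjusted p = 3.08e-05). The shares of all genes called with stimulation were 9.44 % higher and 12 % lower under 5 % O2, and 11.5 % and 10.8 % under 1 % O2.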

How the data were processed

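RNA of 24 libraries in 4 groups of 6 was sequenced by the authors as stranded mRNA libraries with single-end reads, checked with FastQC 0.11.7, aligned to GRCm38 with STAR 2.5.4b and counted per gene with RSEM 1.3.0. The signal deposited by the authors is that count over a DESeq2 size factor of its library (0.955 to 0.992 under 5 % O2, 1.02 to 1.05 under 1 % O2). A further deposited table holds the authors' own comparisons and was not used. From the steps between values, 100 % came out as whole reads within 0.01 read in every library, so count tests could also be run.

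The 14541 genes that reached 10 normalized counts in 6 or more libraries entered 1 limma 3.58.1 fit of log2(normalized count + 1) over the 4 groups (trend and robust), without a replicate block. Genes with a Benjamini-Hochberg adjusted p under 0.05 were called. Fold changes are on this log2 scale, which understates changes of low genes. At 26541858 to 28173745 reads per library a normalized count of 10 rests on about 10 reads. The p-values set each difference against the spread between these cultures of 1 line, pooled over the 4 groups in the fit, and do not reach beyond that line. Alternatives were a replicate block, no filter, a pseudocount of 10, a threshold of 0.01, only the groups compared, libraries rescaled to the same total, array weights, edgeR 4.0.16, DESeq2 1.42.0 and voom on whole reads, and leaving out 1 % CTRL replicate 1 or 5 % STIM replicate 1. The fit was tested on simulated data.

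All 10 members are named, and of each list around them at most 4 called genes with the largest change in a comparison. The lists were other family genes, Sp factors, corepressors and coactivators, the MEK5-ERK5-MEF2 cascade, ubiquitin ligases, recorded targets and markers of myotubes, myoblasts, endothelium, leukocytes and adipocytes. Members and lists were chosen with earlier results of these data known. Exon lengths, overlaps and shared 75-base stretches came from GENCODE M21 (GRCm38), and promoter sequences from RefSeq.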

Additional observations from a re-analysis of the deposited data

Results flagged for a closer look

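The response to stimulation differed between the oxygen levels for 4 members, 1 higher and 3 lower, by the limma interaction test, which called 5.88 % of all genes higher and 5.43 % lower. The difference, 1 % O2 minus 5 % O2 on the log2 scale, was −0.52 for Klf10, −0.24 for Klf5, −0.19 for Klf13 and 0.44 for Klf11, in 6 libraries per group.

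In 3 of 40 groups of member values a single library lay far from its group by Dixon's criterion, which chance alone meets in about 5 % of groups. All 3 were in 1 % STIM and each was the highest of its group. They were Klf4 in replicate 1 (733.6 normalized counts), Klf9 in replicate 3 (1714) and Klf13 in replicate 4 (1977).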

How the results depend on the processing

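Of 593 values of the members and Klf15 under alternative settings, 578 kept their direction and their side of the threshold. The Klf15 values among them carry no weight as a test, since this gene passed the filter only through 5 % STIM. The reversed one was Klf11 in 1 % STIM against 5 % STIM, which was not called in either form, at −0.00326 without 5 % STIM replicate 1 and 0.02242 without 1 % CTRL replicate 1. Klf2 in 1 % STIM against 1 % CTRL lost its call with no filter (adjusted p = 0.0947), the replicate block (0.0678), the compared groups alone (0.0844), rescaled libraries (0.0700), DESeq2 (0.0628), voom (0.0701) and without 5 % STIM replicate 1 (0.0538), by limma unless named. Klf13 in that comparison became called with array weights (adjusted p = 0.0308) and without 1 % CTRL replicate 1 (0.0303). The Klf7 interaction became called with array weights (0.0237), DESeq2 (0.0496) and without 1 % CTRL replicate 1 (0.0413). The cause was not tested. At a threshold of 0.01 the genes called fell from 3115 to 1944 for 5 % STIM against 5 % CTRL and from 1645 to 830 for the interaction, as a stricter threshold must. Rescaling to the same total shifted the median of all genes by at most 0.08 (log2). Same-numbered libraries of different groups did not deviate together (r from −0.148 to 0.155, median 0.006), and 7 of 24 libraries correlated best with their own number. With the replicate block 10, 9, 5, 7 and 4 members were called in the 5 comparisons, against 10, 9, 6, 7 and 4. Given as a description only, Klf15 ranged over the settings from 1.41 to 3.26 for 5 % STIM against 5 % CTRL and from −2.58 to −1.18 for the interaction. The smallest sizes were those with a pseudocount of 10. Few reads limit what can be said of Klf15, Klf8, Klf12 and Klf2.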
